A study of Rattus norvegicus with 15 samples.

Results

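The proteasome genes of rat airway epithelium were drawn from the table of all genes by symbol, as Psm, a letter from a to g and a digit, with at least 50 counts summed over the 15 libraries. All 50 genes with such a symbol, of 21969 in the table, met that minimum. Of these, 49 were among the 15860 genes that passed the low-count filter and were tested, and Psma8, a testis-type alpha subunit with 74 counts in all, was not. The 50 comprise 48 proteasome genes and 2 genes that carry the symbol without being subunits, Psmc3ip, named for its binding to Psmc3 and known from meiotic recombination, and Psme3ip1, named for its binding to Psme3. The alpha 3 subunit is listed as Psma3l.

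The libraries hold poly(A) RNA of cells taken from rat trachea and grown for several weeks with their upper side exposed to air and medium below, a culture in which airway cells differentiate. The labels give 3 groups of 5 libraries. The CSE with naringenin group received 100 µM naringenin, a citrus flavanone, for 4 h and then naringenin with 10% CSE for 24 h. The CSE group received 10% CSE for 24 h, and the controls received no treatment. CSE is an abbreviation that the labels do not expand. No library received naringenin alone, and the labels give no strain, sex, age, animal or culture, so the p-values measure the spread between libraries, which may be technical.

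The proteasome is the protease that degrades proteins tagged with ubiquitin. Its barrel-shaped core is a stack of alpha and beta rings, with the cutting sites of Psmb5, Psmb6 and Psmb7 inside. A regulatory cap binds the tagged protein, removes the ubiquitin and threads the chain into the core by a ring of ATPases. In cells exposed to interferon, Psmb8, Psmb9 and Psmb10 take the places of Psmb5, Psmb6 and Psmb7, which gives the immunoproteasome, known for cutting peptides that are shown on MHC class I. In mammalian cells the genes of core and cap are known to be controlled together by the factor Nfe2l1 (NRF1), and some of them also by Nfe2l2 (NRF2), the factor of the antioxidant response. Both factors bind antioxidant response elements.

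Promoters of 45 of the 50 genes were found in RefSeq for the build GRCr8, each running from 250 bases before to 50 bases after the start of the gene. They are shown because many core and cap genes moved together below and the immunoproteasome genes did not. Windows of 120 bases from 100 before the start are printed 5′ to 3′ on the strand of the gene. The antioxidant response element core TGACNNNGC, read on either strand, is in capitals for 2 catalytic subunits, Psmb5 and Psmb6, and for the alpha subunit Psma3, and the interferon-stimulated response element core, GAAA repeated after any 2 bases, is in capitals for Psmb8, Psmb10 and Psme2. Psmd5, the member with the largest difference between CSE and control, held neither in its window. A match to the looser antioxidant core described below lies there at positions -54 to -46 and is not in capitals. The windows lie at chr15:32047360-32047479 on the minus strand (Psmb5), chr10:55737788-55737907 on the plus strand (Psmb6), chr6:95219649-95219768 on the plus strand (Psma3), chr3:38548471-38548590 on the minus strand (Psmd5), chr20:4657012-4657131 on the minus strand (Psmb8), chr19:50743273-50743392 on the minus strand (Psmb10) and chr15:33052732-33052851 on the minus strand (Psme2).
Psmb5: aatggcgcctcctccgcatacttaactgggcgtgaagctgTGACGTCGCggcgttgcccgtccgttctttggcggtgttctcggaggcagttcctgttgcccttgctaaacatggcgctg
Psmb6: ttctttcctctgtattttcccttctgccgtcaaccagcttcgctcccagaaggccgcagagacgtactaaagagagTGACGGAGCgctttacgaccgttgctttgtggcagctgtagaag
Psma3: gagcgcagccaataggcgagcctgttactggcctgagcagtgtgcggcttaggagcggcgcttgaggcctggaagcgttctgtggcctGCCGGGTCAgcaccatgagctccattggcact
Psmd5: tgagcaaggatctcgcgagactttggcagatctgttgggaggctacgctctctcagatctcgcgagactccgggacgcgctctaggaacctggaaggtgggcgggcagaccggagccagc
Psmb8: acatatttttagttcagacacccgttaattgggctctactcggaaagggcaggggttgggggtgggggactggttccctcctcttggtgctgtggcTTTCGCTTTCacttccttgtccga
Psmb10: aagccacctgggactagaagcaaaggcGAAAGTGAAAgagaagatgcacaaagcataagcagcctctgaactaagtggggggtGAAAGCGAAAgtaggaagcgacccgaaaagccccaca
Psme2: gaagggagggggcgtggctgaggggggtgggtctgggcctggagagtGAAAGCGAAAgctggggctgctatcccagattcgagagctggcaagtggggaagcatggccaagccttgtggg

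Shares are set beside those of all 33469 promoters, which outnumber the 21969 genes of the count table. These promoters were not matched to the members by expression or base content. Of the 45 promoters, 8 held the core TGACNNNGC (17.8%, against 12.1% of all 33469 promoters), those of Psma3l, Psmb2, Psmb5, Psmb6, Psmd1, Psmd3, Psmd9 and Psme4. Among the 31 promoters of members that were higher in CSE libraries than in controls, 7 held it, and 1 of the 13 promoters of tested members that did not pass. This split was not tested. The looser core TGANNNNGC, which includes the first, was in 23 (51.1%, against 40.5% of all). The longer MARE, which can overlap both, was in 2 (4.44%, against 1.31%). The interferon-stimulated response element core was in 7 (15.6%, against 3.92%), those of Psma4, Psmb3, Psmb8, Psmb10, Psmd7, Psme2 and Psmg4. The gamma-activated site core TTCNNNGAA was in 4 (8.89%, against 8.87%).

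Elements of general promoters were frequent in these windows. The GC box GGGCGG was in 32 (71.1%, against 33.1% of all promoters), the ETS site CCGGAAG in 17 (37.8%, against 8.75%) and the site of nuclear respiratory factor 1 in 6 (13.3%, against 4.25%). CCAAT was in 23 (51.1%, against 37.5%), the xenobiotic response element core GCGTG in 22 (48.9%, against 29.7%) and the NF-kB site in 1 (2.22%, against 1.53%). The heat shock element was in 0 of 45, against 0.798% of all. The split between the 31 members higher in CSE and the 13 that did not pass was also counted for other motifs. The xenobiotic core was in 18 and 4, and the looser antioxidant core in 18 and 5. The GC box was in 22 and 9, and the interferon-stimulated core in 4 and 3. None of these splits was tested. Each motif was searched on both strands, and a match is a string of letters, not evidence of binding.

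Library totals ran from 55.1 to 60.6 M counts, and levels are given as CPM, counts per 1e6 counts of the library after TMM scaling. A floor of 3 counts corresponds to 0.048 to 0.0557 CPM. Floors cover counting error only. The libraries fell into 3 sets by clustering, each with libraries of all 3 groups (2 of each group in sets 1 and 2, and library 5 of each group in set 3). What the sets stand for is not given in the labels, so comparisons were repeated within them. All 10 airway epithelium markers were detected in every group, with a sum of 4322 to 5527 CPM in CSE with naringenin, 4498 to 5541 CPM in CSE and 6208 to 8198 CPM in control libraries. Of these markers 4 were lower in CSE than in controls (Epcam, Krt8, Krt18 and Dnah5). The pan-leukocyte marker Ptprc had no count in any CSE with naringenin library and stood at no more than 0.838 CPM in a CSE library and 0.0706 CPM in a control library. Leukocyte markers (9 of 10 in the table) summed to 371 to 912 CPM in CSE with naringenin, 401 to 823 CPM in CSE and 583 to 1151 CPM in control libraries, nearly all of it Cd74, the MHC class II chaperone, and none of the 6 tested differed. Endothelial markers summed to 4.37 to 7.32 CPM in CSE with naringenin, 7.77 to 12.7 CPM in CSE and 3.76 to 9.11 CPM in control libraries, with Eng higher in CSE. Stromal markers (9 of 10 in the table) summed to 38.8 to 226 CPM in CSE with naringenin, 23.0 to 132 CPM in CSE and 159 to 590 CPM in control libraries, mostly Tagln, with 3 of the 8 tested lower in CSE. The part of these differences in cell markers in the results below was not tested, and in RNA of whole cultures fewer cells of a type and less RNA per cell cannot be told apart.

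Per length of transcript, most of the abundant members were core genes. FPKM (fragments scaled to gene length and library size, as deposited by the authors) allows genes to be compared. In controls the order began with Psmb4 at 139.5 ± 12.4, Psma6 at 123.9 ± 8.00, Psmb5 at 122.7 ± 14.1 and Psma2 at 122.1 ± 11.4 FPKM (SD, n = 5), and the last 3 of these lay within each other's SD. The class called constitutive core here holds 16 genes, among them the tissue-specific Psma8 and Psmb11, the 2 lowest of all members by FPKM. With these included, its median FPKM was 96.0 in CSE with naringenin, 113 in CSE and 85.1 in control libraries. For the 17 cap genes it was 62.8 FPKM in CSE with naringenin, 71.6 in CSE and 53.3 in control libraries. The immunoproteasome genes lay lower. Psmb10 averaged 40.9 ± 7.24 FPKM in CSE with naringenin, 44.1 ± 6.51 in CSE and 41.4 ± 4.57 in control libraries (SD, n = 5). Psmb9 averaged 25.0 ± 2.32 FPKM in CSE with naringenin, 22.2 ± 1.23 in CSE and 25.3 ± 4.28 in control libraries. Psmb8 averaged 24.9 ± 4.02 FPKM in CSE with naringenin, 26.2 ± 6.39 in CSE and 23.9 ± 6.67 in control libraries, so that Psmb8 and Psmb9 did not differ beyond their spread. The assembly chaperone Psmd10, at 9.65 ± 1.96 FPKM in CSE with naringenin, 9.38 ± 1.21 in CSE and 9.43 ± 2.52 in control libraries, was the lowest member short of the 2 tissue-specific subunits. The thymus-type Psmb11 stood at 0.384 FPKM in CSE with naringenin, 0.489 in CSE and 0.611 in control libraries, and the testis-type Psma8 at 0.0306 FPKM in CSE with naringenin, 0.0365 in CSE and 0.0379 in control libraries.

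The first comparison asks how the proteasome genes stood in epithelium given CSE. Of the 49 members tested, 35 were higher in CSE libraries than in controls, none was lower and 14 did not pass (edgeR, adjusted p under 0.05). Of all 15860 genes 10.8% were called higher and 10.4% lower. The members' median log2 fold change was 0.30, against -0.0026 for all genes. In 31 members all 5 CSE libraries lay above all 5 controls, as in 8.32% of all genes. Summed over all members, proteasome transcripts came to 5899 ± 388 CPM in CSE and 4771 ± 174 CPM in control libraries (SD, n = 5). All 17 regulatory cap genes that the symbol rule covers were higher. They were 6 of 6 ATPases (median log2 0.33) and 11 of 11 non-ATPase members (median log2 0.45). In the constitutive core 12 of the 15 tested were higher (median log2 0.32), with the thymus-type Psmb11 among the 3 that did not pass. Of the 3 immunoproteasome genes none was higher (median log2 0.03). For 1 of them, lower in CSE, edgeR gave an unadjusted p under 0.05, and DESeq2 and limma-voom called none. The difference between cap and core was not tested. With 1 library left out at a time, 27 of the 35 members passed in all 15 cases. The other 8, Psma2, Psma7, Psmb4, Psmb6, Psmb7, Psmc3, Psme2 and Psme4, lost the call in at least 1, and without control library 3 or control library 4 all 8 did. Psma2 kept it only without control library 1 or 2. Psmc3 kept it only without control library 2, CSE library 1 or CSE with naringenin library 5. Both also lost it with RLE scaling and with counts summed per library set, and kept it with DESeq2 and limma-voom.

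**Figure D1:**
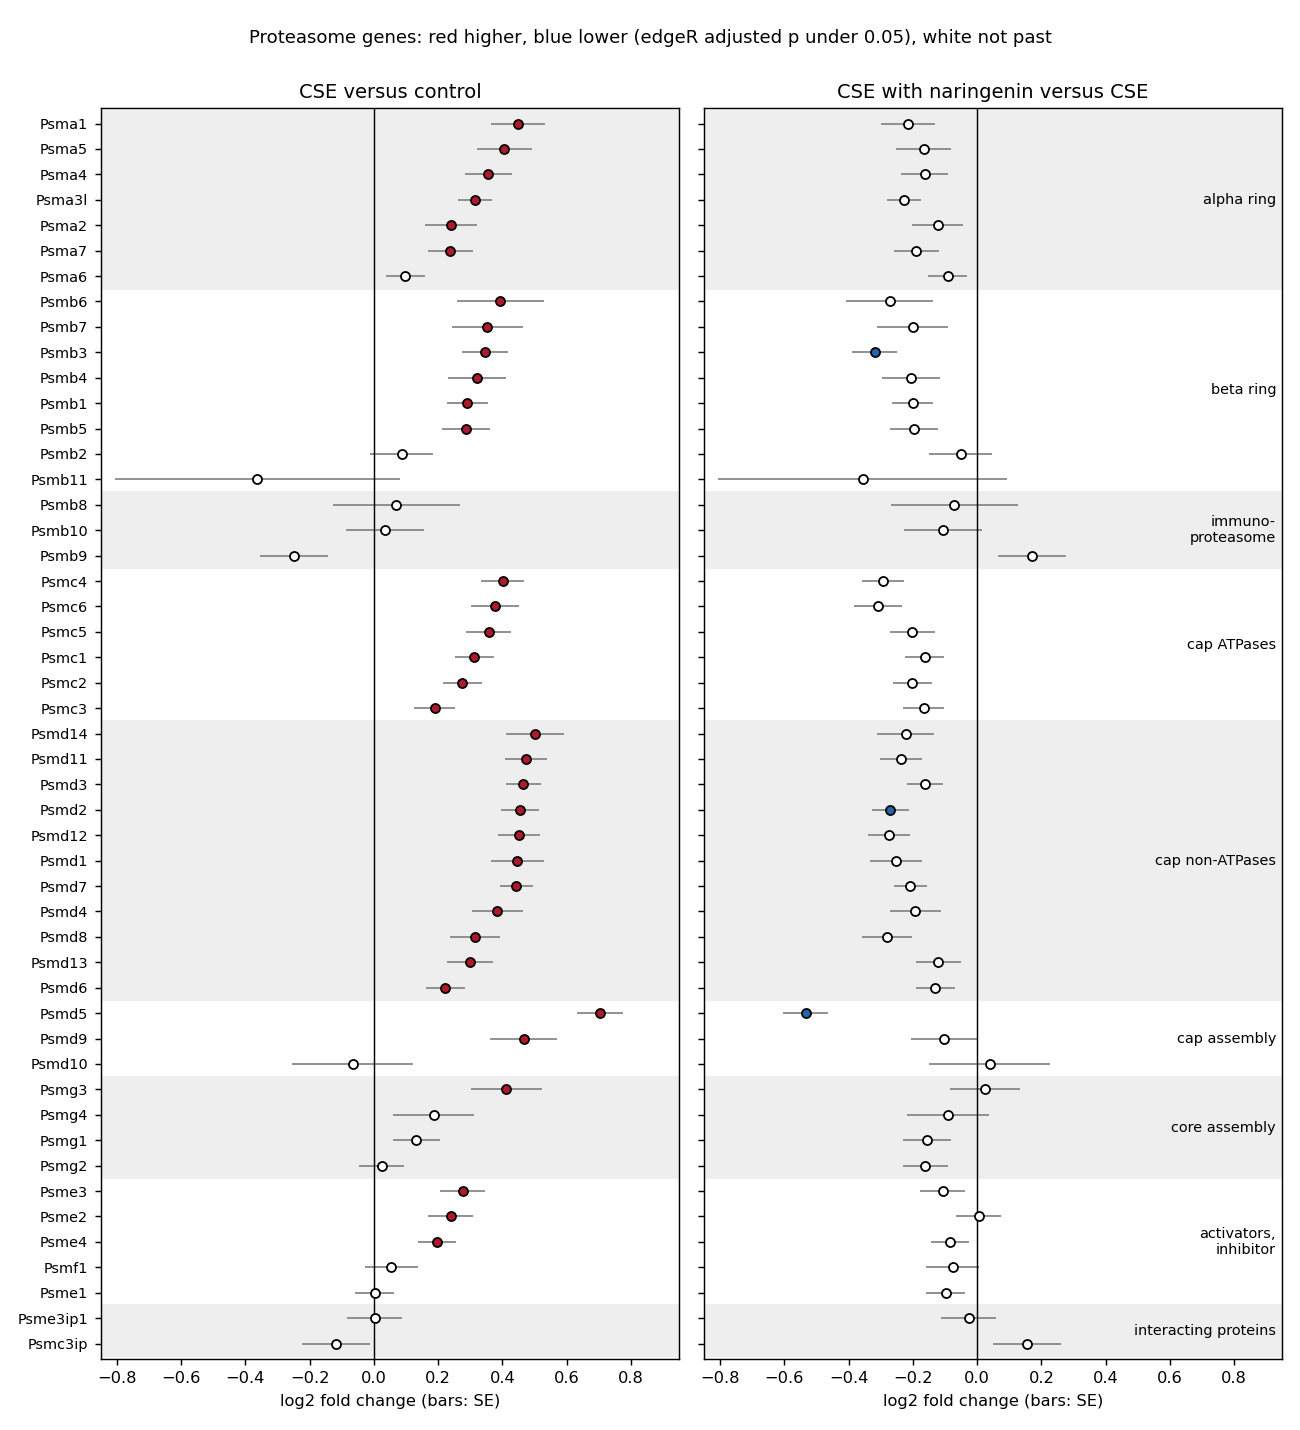
Log2 fold change of the 49 tested proteasome genes (points, with the SE as bars) in CSE versus control on the left and CSE with naringenin versus CSE on the right, ordered by class and by size. Filled points passed an edgeR adjusted p of 0.05, which 35 did on the left, all higher, and 3 on the right, all lower.

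The non-ATPase subunits of the cap form its scaffold, its ubiquitin receptors and its lid. Values below are CPM of libraries 1 to 5 of each group. Psmd2, the large scaffold of the base to which ubiquitin receptors and Usp14 dock, had 395, 380.4, 367, 371 and 388 CPM in CSE with naringenin libraries, 437, 432, 455, 449 and 520.4 CPM in CSE libraries, and 334, 332, 331, 324 and 353 CPM in control libraries. All 5 CSE libraries were above all controls, and the fold change was log2 0.45 ± 0.06 (SE), adjusted p = 1.12e-04. Psmd3, a lid subunit, had 147, 155, 145, 149 and 169 CPM in CSE with naringenin libraries, 164, 165, 168, 175 and 184 CPM in CSE libraries, and 119.7, 128, 122, 121 and 129 CPM in control libraries. Here too the CSE and control libraries did not overlap (log2 0.47 ± 0.06 (SE), adjusted p = 5.93e-05). Psmd7, the lid subunit that pairs with Psmd14, had 77.1, 71.3, 77.7, 76.7 and 71.0 CPM in CSE with naringenin libraries, 79.0, 85.1, 86.6, 89.9 and 90.8 CPM in CSE libraries, and 64.6, 63.1, 65.7, 62.1 and 62.0 CPM in control libraries. Its controls spread by 1.65 CPM (SD), all CSE libraries lay above them, and the fold change was log2 0.44 ± 0.05 (SE), adjusted p = 5.10e-05.

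Psmd11, the lid subunit that clamps cap and core together, had 154, 153, 145, 144 and 153 CPM in CSE with naringenin libraries, 164, 167, 174, 175 and 204 CPM in CSE libraries, and 128, 121, 123, 123 and 142 CPM in control libraries. The lowest CSE library lay above the highest control (log2 0.47 ± 0.07 (SE), adjusted p = 2.22e-04). Psmd12, another lid subunit, had 114, 112, 103, 98.8 and 112 CPM in CSE with naringenin libraries, 123, 133, 116, 132 and 147 CPM in CSE libraries, and 91.3, 93.6, 99.6, 94.6 and 97.3 CPM in control libraries. CSE and control libraries did not overlap (log2 0.45 ± 0.07 (SE), adjusted p = 3.03e-04). Psmd14, the deubiquitinase that removes ubiquitin chains during degradation, had 70.1, 67.3, 61.8, 54.2 and 66.2 CPM in CSE with naringenin libraries, 65.8, 76.9, 66.3, 76.1 and 87.9 CPM in CSE libraries, and 51.2, 46.7, 57.1, 54.9 and 53.4 CPM in control libraries. It had the largest difference of the subunits of the cap (log2 0.50 ± 0.09 (SE), adjusted p = 0.00144). The other 5 non-ATPase genes under the symbol rule, Psmd1, Psmd4, Psmd6, Psmd8 and Psmd13, were higher by log2 0.22 (Psmd6) to 0.45 (Psmd1).

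The 6 ATPases unfold the substrate and drive it into the core. Psmc4 had 127, 115, 113, 115 and 127 CPM in CSE with naringenin libraries, 129.9, 146, 142, 144 and 170.0 CPM in CSE libraries, and 111, 112, 113, 106 and 112 CPM in control libraries. All CSE libraries lay above all controls (log2 0.40 ± 0.07 (SE), adjusted p = 8.53e-04), and the same held for Psmc1, Psmc2, Psmc3, Psmc5 and Psmc6, which were higher by log2 0.19 (Psmc3) to 0.38 (Psmc6).

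**Figure D2:**
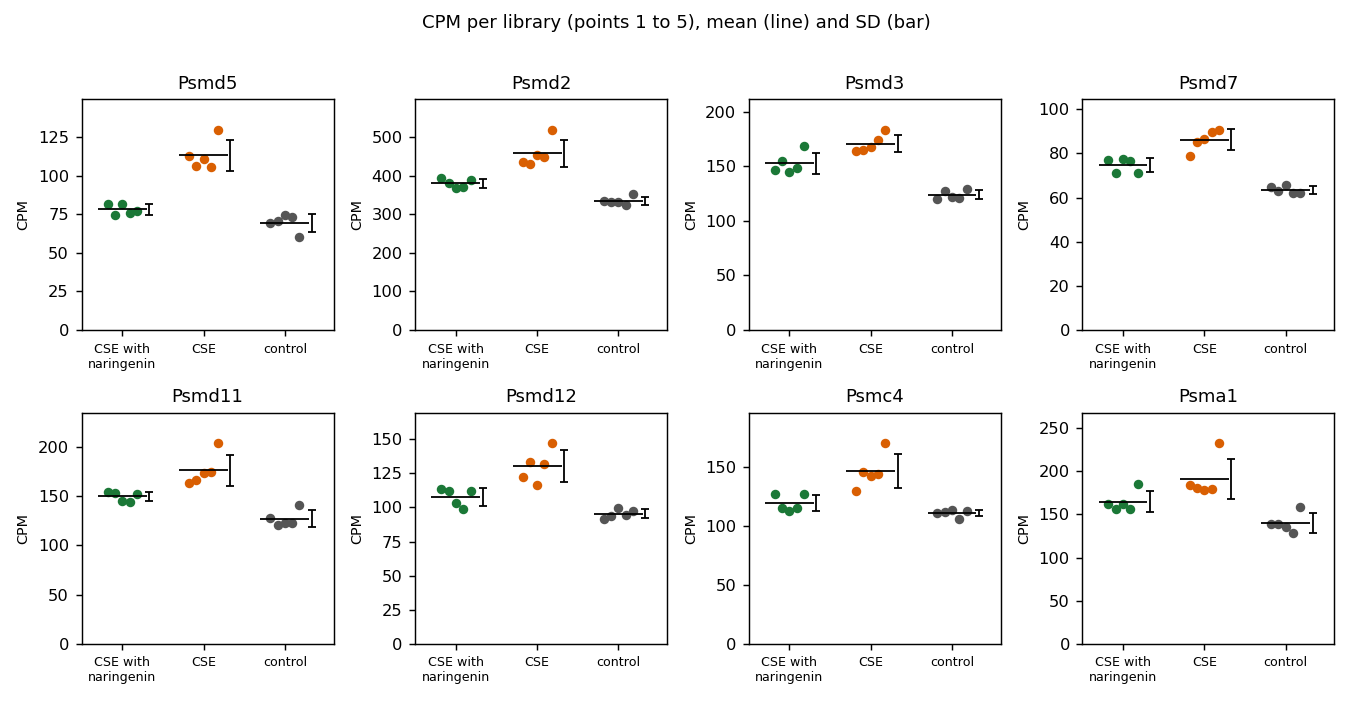
CPM in each library (points, libraries 1 to 5 from left to right in a group) with the mean (line) and SD (bar) for 8 proteasome genes, in CSE with naringenin, CSE and control libraries. In all 8 every CSE library lies above every control, and library 5 is the highest of its group for Psmd5, Psmd2, Psmd3, Psmd7, Psmd11, Psmd12, Psmc4 and Psma1 in CSE.

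In the alpha ring, which gates the entry to the core, 6 of 7 tested genes were higher in CSE. Psma1 had 162, 157, 163, 157 and 186 CPM in CSE with naringenin libraries, 185, 181, 178, 179.9 and 233 CPM in CSE libraries, and 138, 139, 135, 129 and 159 CPM in control libraries. The groups did not overlap between CSE and control, with library 5 highest in all 3 groups (log2 0.45 ± 0.08 (SE), adjusted p = 0.00186). Psma3l had 245, 225, 240.1, 235 and 248 CPM in CSE with naringenin libraries, 263, 265, 283, 277 and 308 CPM in CSE libraries, and 226, 228, 225, 223 and 219.5 CPM in control libraries. Its controls spread over 3.28 CPM (SD), and all CSE libraries lay above them (log2 0.32 ± 0.05 (SE), adjusted p = 8.97e-04). Psma2, Psma4, Psma5 and Psma7 were higher by log2 0.24 (Psma7) to 0.41 (Psma5). Psma6 did not pass (log2 0.10, adjusted p = 0.265).

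In the beta ring 6 of 8 tested genes were higher in CSE, among them all 3 constitutive catalytic subunits. Psmb3, which has no active site, had 80.5, 84.0, 83.4, 78.5 and 87.7 CPM in CSE with naringenin libraries, 92.3, 100.2, 98.0, 104 and 122 CPM in CSE libraries, and 82.4, 82.4, 77.0, 77.0 and 87.9 CPM in control libraries. All 5 CSE libraries were above the controls (log2 0.35 ± 0.07 (SE), adjusted p = 0.00348). Psmb5, the chymotrypsin-like subunit, had 134, 125, 132, 122 and 141 CPM in CSE with naringenin libraries, 138, 153, 148, 153 and 158 CPM in CSE libraries, and 136, 139, 108, 115 and 116 CPM in control libraries. CSE library 1 lay below control library 2, so the groups overlapped (log2 0.29 ± 0.07 (SE), adjusted p = 0.0133). Psmb6, the caspase-like subunit, had 63.2, 59.5, 67.1, 53.2 and 84.6 CPM in CSE with naringenin libraries, 67.8, 73.8, 76.4, 77.8 and 99.6 CPM in CSE libraries, and 65.1, 67.4, 50.7, 50.0 and 67.9 CPM in control libraries. CSE library 1 lay among the higher controls, and the call was close to the threshold (log2 0.39 ± 0.13 (SE), adjusted p = 0.0498) and was lost in 11 of the 15 fits without 1 library. Psmb7, the trypsin-like subunit, had 90.2, 86.0, 80.0, 74.8 and 94.7 CPM in CSE with naringenin libraries, 85.3, 98.9, 81.8, 100.0 and 123 CPM in CSE libraries, and 73.7, 81.2, 70.6, 67.6 and 89.9 CPM in control libraries. These groups overlapped as well (log2 0.35 ± 0.11 (SE), adjusted p = 0.0334). Psmb1 and Psmb4 were higher by log2 0.29 and 0.32, while Psmb2 (log2 0.09, adjusted p = 0.574) and the scarce Psmb11 (log2 -0.36, adjusted p = 0.604) did not pass.

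The chaperones that build the particle did not move as one. Psmd5, which holds ATPases of the base until the cap is assembled, had 81.5, 74.7, 82.0, 75.9 and 77.3 CPM in CSE with naringenin libraries, 113, 106, 111, 106 and 130.2 CPM in CSE libraries, and 69.2, 70.9, 74.5, 73.4 and 60.1 CPM in control libraries. This was the largest difference of all members between CSE and control (log2 0.70 ± 0.07 (SE), adjusted p = 1.51e-05), with no overlap. Psmd9, another chaperone of the base, had 35.7, 33.7, 34.4, 36.3 and 43.8 CPM in CSE with naringenin libraries, 37.4, 34.9, 38.2, 38.0 and 48.9 CPM in CSE libraries, and 26.8, 28.1, 26.6, 27.0 and 34.4 CPM in control libraries. Its CSE libraries lay above all controls by a small margin (log2 0.47 ± 0.10 (SE), adjusted p = 0.00574). Psmd10, the third, did not pass (log2 -0.07, adjusted p = 0.842). Of the 4 chaperones of the core, only Psmg3 passed in edgeR, with 17.6, 19.2, 16.4, 15.1 and 19.6 CPM in CSE with naringenin libraries, 15.8, 15.6, 17.0, 17.6 and 20.5 CPM in CSE libraries, and 13.9, 14.1, 14.4, 12.4 and 10.3 CPM in control libraries. All its CSE libraries lay above all controls (log2 0.41 ± 0.11 (SE), adjusted p = 0.0161). Psmg1, Psmg2 and Psmg4 had log2 0.13, 0.02 and 0.19 and did not pass.

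Among proteins that bind the ends of the core in place of the cap, 3 activators were higher and 1 activator and the inhibitor did not pass. Psme2 and Psme1 are the paired subunits of the interferon-induced activator PA28. Psme2 had 86.1, 73.7, 82.4, 84.5 and 89.5 CPM in CSE with naringenin libraries, 78.4, 81.7, 87.0, 76.1 and 91.5 CPM in CSE libraries, and 68.8, 74.9, 68.0, 63.9 and 75.6 CPM in control libraries. The lowest CSE library was above the highest control by less than 1 SD (log2 0.24 ± 0.07 (SE), adjusted p = 0.0248). Psme1 had 119, 109, 129, 135 and 122 CPM in CSE with naringenin libraries, 130.5, 129.5, 133, 128 and 136 CPM in CSE libraries, and 129, 142, 127, 123 and 135 CPM in control libraries. Its groups overlapped throughout (log2 0.00 ± 0.06 (SE), adjusted p = 0.987), so the paired genes gave different calls, a difference that was not itself tested. Psme3, the nuclear activator, had 109, 124, 114, 118 and 107 CPM in CSE with naringenin libraries, 121, 126, 122, 131 and 117 CPM in CSE libraries, and 94.8, 99.5, 118, 106 and 90.6 CPM in control libraries. Control library 3 reached into the CSE range (log2 0.28 ± 0.07 (SE), adjusted p = 0.0123). Psme4, the large activator PA200, was higher by log2 0.20 (adjusted p = 0.0303), and the inhibitor Psmf1 did not pass (log2 0.05, adjusted p = 0.69). Psmc3ip, which is no subunit, had 25.5, 25.2, 30.0, 31.8 and 26.8 CPM in CSE with naringenin libraries, 24.6, 24.3, 25.4, 26.5 and 24.3 CPM in CSE libraries, and 30.3, 32.6, 25.6, 26.8 and 20.7 CPM in control libraries. Its groups overlapped (log2 -0.12 ± 0.11 (SE), adjusted p = 0.456), and Psme3ip1 did not pass either (log2 0.00, adjusted p = 0.991).

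None of the immunoproteasome genes passed in any of the 3 comparisons with group as the only term. Psmb8, the counterpart of Psmb5, had 50.2, 46.6, 59.4, 58.9 and 69.4 CPM in CSE with naringenin libraries, 67.8, 46.0, 61.5, 43.8 and 79.5 CPM in CSE libraries, and 52.1, 57.8, 44.2, 44.5 and 86.1 CPM in control libraries. Within each group the libraries spread by more than the groups differed (CSE versus control log2 0.07 ± 0.20 (SE), adjusted p = 0.84). Psmb9, the counterpart of Psmb6, had 36.9, 40.2, 42.2, 45.9 and 44.4 CPM in CSE with naringenin libraries, 38.5, 36.3, 38.8, 34.9 and 37.7 CPM in CSE libraries, and 45.3, 51.8, 35.8, 36.1 and 52.2 CPM in control libraries. The CSE libraries lay in a narrow band at the low end of the controls (log2 -0.25 ± 0.11 (SE), adjusted p = 0.107). It passed as lower in CSE with the library set as a block and without control library 3 or control library 4 (log2 -0.23, -0.32 and -0.31, edgeR adjusted p = 0.0136, 0.0382 and 0.0479). With counts summed per library set it did not pass (log2 -0.27, edgeR adjusted p = 0.0626). Psmb10, the counterpart of Psmb7, had 40.8, 37.4, 54.6, 52.2 and 40.0 CPM in CSE with naringenin libraries, 49.3, 44.6, 58.9, 41.0 and 48.4 CPM in CSE libraries, and 54.5, 50.3, 43.9, 44.6 and 43.1 CPM in control libraries. These groups overlapped throughout (log2 0.03 ± 0.12 (SE), adjusted p = 0.871).

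**Figure D3:**
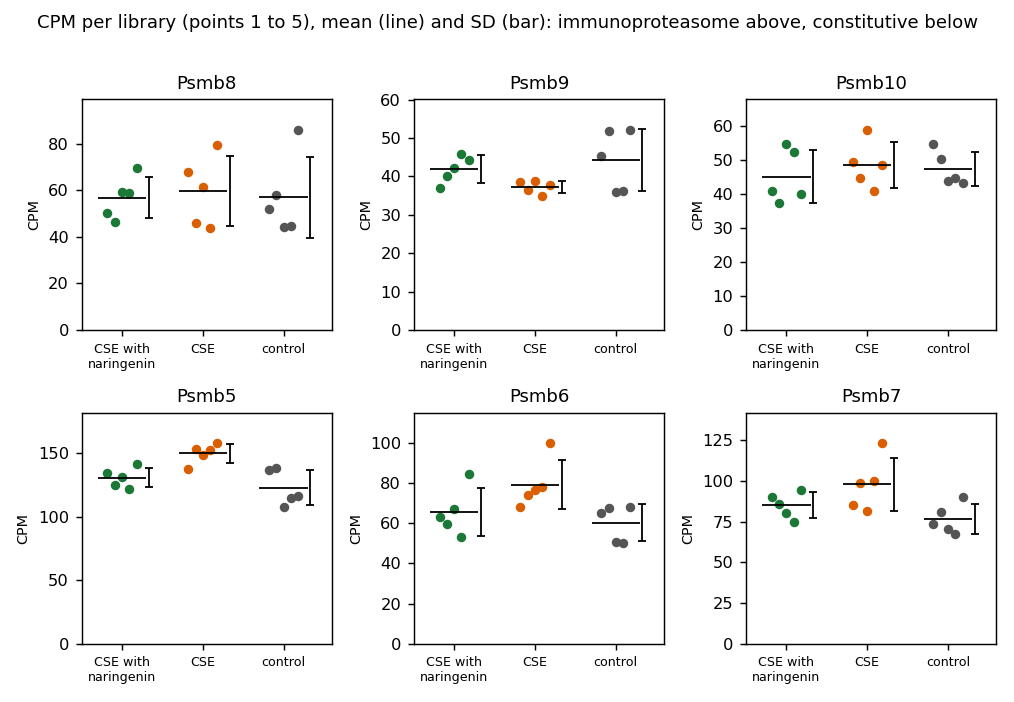
CPM in each library (points, libraries 1 to 5 from left to right in a group) with the mean (line) and SD (bar) for the immunoproteasome subunits (above) and the constitutive subunits they replace (below), in CSE with naringenin, CSE and control libraries. The means of Psmb5, Psmb6 and Psmb7 are highest in CSE, while those of Psmb8, Psmb9 and Psmb10 differ by less than the spread of the controls.

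Because each immunoproteasome subunit replaces 1 constitutive subunit, their ratio of counts was taken within each library and tested by a two-sided exact permutation test over libraries (5 against 5, smallest possible p = 0.00794, Benjamini-Hochberg over 9 tests). Psmb9 to Psmb6 was 0.584, 0.675, 0.629, 0.863 and 0.524 in CSE with naringenin libraries, 0.567, 0.492, 0.508, 0.448 and 0.378 in CSE libraries and 0.697, 0.768, 0.707, 0.722 and 0.769 in control libraries. All 5 CSE libraries lay below all 5 controls. The log2 difference between CSE and control was -0.63 (means -1.08 ± 0.22 and -0.45 ± 0.07, SD, n = 5 each). The exact permutation p = 0.00794 was the smallest this design can give (adjusted p = 0.0714). Over 9 tests, 1 ratio alone at that p cannot reach an adjusted p under 0.05. The adjusted value therefore could not decide whether the ratio differed. CSE with naringenin differed from CSE by log2 0.44 (exact permutation p = 0.0159, adjusted p = 0.0714, higher in 4 of 5 libraries than any CSE library) and from control by log2 -0.18 (exact permutation p = 0.183, adjusted p = 0.411).

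The other 2 pairs had the same sign in CSE versus control and overlapped. Psmb8 to Psmb5 averaged 0.434 ± 0.0583 in CSE with naringenin, 0.400 ± 0.103 in CSE and 0.467 ± 0.153 in control libraries (SD, n = 5; log2 difference of CSE and control -0.21, exact permutation adjusted p = 0.583). Psmb10 to Psmb7 averaged 0.538 ± 0.139 in CSE with naringenin, 0.510 ± 0.138 in CSE and 0.624 ± 0.0944 in control libraries (log2 difference of CSE and control -0.32, exact permutation adjusted p = 0.405). FPKM ratios also depend on the gene lengths the authors used, which were not checked. Per length, by FPKM, Psmb10 stood near its counterpart, at a ratio of 0.916 ± 0.237 in CSE with naringenin, 0.869 ± 0.234 in CSE and 1.06 ± 0.161 in control libraries. Psmb8 and Psmb9 were well below theirs. The FPKM ratio of Psmb8 to Psmb5 was 0.183 ± 0.0246 in CSE with naringenin, 0.169 ± 0.0435 in CSE and 0.197 ± 0.0647 in control libraries, and that of Psmb9 to Psmb6 was 0.309 ± 0.0607 in CSE with naringenin, 0.226 ± 0.0333 in CSE and 0.345 ± 0.0162 in control libraries.

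**Figure D4:**
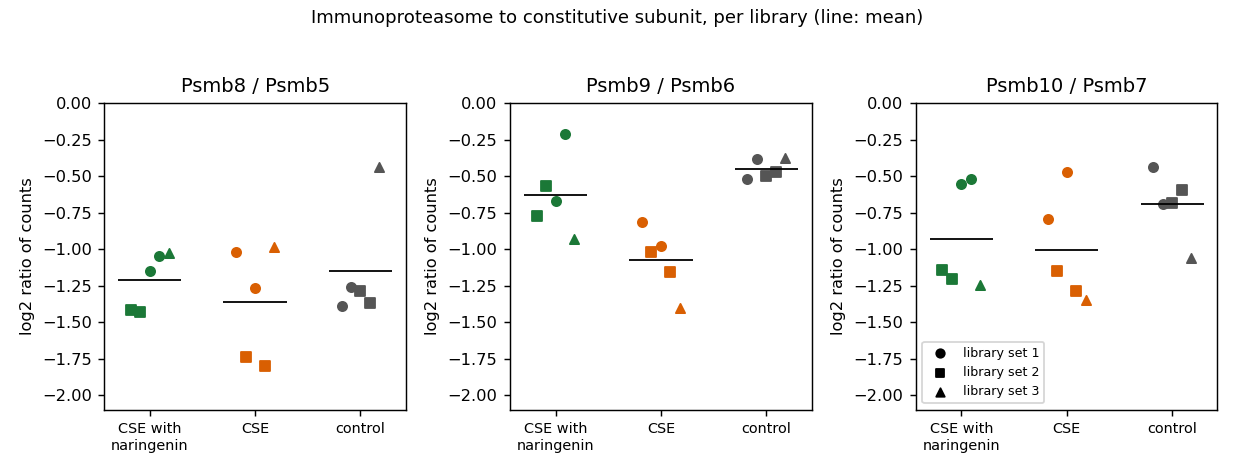
Log2 ratio of the counts of an immunoproteasome subunit to the constitutive subunit it replaces, in each library (points, shaped by library set) with the mean (line), in CSE with naringenin, CSE and control libraries. For Psmb9 to Psmb6 all CSE libraries lie below all controls, while the other 2 pairs overlap and differ between library sets.

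The second comparison asks how the genes raised in CSE stood when naringenin was given with it. Of the 49 members 3 were lower in CSE with naringenin than in CSE, Psmd5, Psmd2 and Psmb3, none was higher and 46 did not pass, where 0.574% of all genes were called lower. The fold change was negative in 44 of 49 members, with a median of log2 -0.17 (all genes 0.0046), and -0.21 for the cap, -0.20 for the constitutive core and -0.07 for the immunoproteasome. In 13 members all 5 CSE with naringenin libraries lay below all 5 CSE libraries, as in 2.8% of all genes. The CSE libraries enter both this comparison and the first, so the opposite signs of their fold changes are not independent. Summed over all members, transcripts came to 5189 ± 154 CPM in CSE with naringenin and 5899 ± 388 CPM in CSE libraries (SD, n = 5).

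Psmd5, the chaperone with the largest difference in the first comparison, also had the largest here. From the values above, all CSE with naringenin libraries (74.7 to 82.0 CPM) lay below all CSE libraries (106 to 130.2 CPM), with log2 -0.53 ± 0.07 (SE), adjusted p = 0.0022. Psmd2 was next to pass, at 367 to 395 CPM in CSE with naringenin against 432 to 520.4 CPM in CSE (log2 -0.27 ± 0.06 (SE), adjusted p = 0.0417). Psmb3 passed narrowly, at 78.5 to 87.7 CPM in CSE with naringenin against 92.3 to 122 CPM in CSE (log2 -0.32 ± 0.07 (SE), adjusted p = 0.0462). All 3 also passed with DESeq2, with limma-voom and without set 3. Leaving out 1 library at a time kept the call of Psmd5 in all 15 cases, while Psmd2 kept it only without control library 5 and Psmb3 only without control library 5 or CSE library 1. With counts summed per library set none of the 3 passed (Psmd5 log2 -0.58, adjusted p = 0.051), and Psmc6 did. Psmc4 (log2 -0.29, adjusted p = 0.0544), Psma3l (log2 -0.23, adjusted p = 0.0576), Psmd12 (log2 -0.27, adjusted p = 0.0623), Psmc6 (log2 -0.31, adjusted p = 0.064) and Psmd7 (log2 -0.21, adjusted p = 0.0687) lay just short of the threshold, and their libraries did not overlap between the 2 groups. With the library set as a block 22 members were lower, as were 958 of all 15860 genes (91 without the block).

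Other named members did not pass. Psmd11 and Psmd3 had log2 -0.24 and -0.16 (adjusted p = 0.1 and 0.198). Psmb5, Psmb6 and Psmb7 had log2 -0.20, -0.27 and -0.20 (adjusted p = 0.251, 0.42 and 0.483). Psmb9 was the immunoproteasome gene with a positive value (log2 0.17, adjusted p = 0.542). Psmg3, Psme2 and Psmd9, each higher in CSE than in control, had log2 0.03, 0.01 and -0.10 (adjusted p = 0.959, 0.989 and 0.747).

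In CSE with naringenin against control, 6 of 49 members were higher and none was lower, where 4.26% of all genes were called higher. They are Psmd3 (log2 0.30 ± 0.06 (SE), adjusted p = 0.0041), Psmd7 (log2 0.24 ± 0.05 (SE), adjusted p = 0.0118), Psmd11 (log2 0.24 ± 0.07 (SE), adjusted p = 0.0391), Psmd9 (log2 0.36 ± 0.10 (SE), adjusted p = 0.0437), Psmg3 (log2 0.44 ± 0.11 (SE), adjusted p = 0.0258) and Psme2 (log2 0.25 ± 0.07 (SE), adjusted p = 0.0442). They comprise 3 lid subunits, 1 chaperone each of cap and core and 1 activator subunit. Psmd3 and Psmd7 passed whichever single library was left out. Psmg3 lost the call without control library 4 or CSE with naringenin library 1 or 5, and Psmd9, Psmd11 and Psme2 in 12 of 15 cases each. The fit with group only called 675 of all 15860 genes higher. Scaled by library totals alone 17 members were higher (1442 of all genes), and with the library set as a block 18 (1995 of all genes). With counts summed per library set 4 were, Psmd3, Psmd9, Psme2 and Psma1, while Psmd7 (log2 0.23, adjusted p = 0.0682), Psmd11 and Psmg3 lost the call. The median of the members was log2 0.11, with 39 of 49 positive, against 7.88e-05 for all genes. In 7 members all CSE with naringenin libraries lay above all controls, as in 4.65% of all genes. Psmd5 was one of these (74.7 to 82.0 CPM in CSE with naringenin against 60.1 to 74.5 CPM in control libraries) without passing (log2 0.17 ± 0.07 (SE), adjusted p = 0.155).

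Between library sets the differences varied in size, and those of some members also in sign. In CSE versus control 36 of the 49 members were positive in all 3 sets, among them all 35 called higher, and 1 was negative in all 3. The sets divide the same libraries that gave the calls, so these signs add no independent evidence for them. Shares of all genes with 1 sign in all 3 sets are not given here. The median over members was log2 0.19, 0.34 and 0.45 in sets 1, 2 and 3. For the cap it was 0.29, 0.40 and 0.53, for the constitutive core 0.12, 0.38 and 0.45, and for the immunoproteasome 0.04, -0.01 and -0.12. A test of whether the difference depended on the set passed for 4 members (edgeR, adjusted p under 0.05; 4.72% of all genes). Psma2 had log2 0.02, 0.35 and 0.45 in sets 1, 2 and 3, Psmb5 0.06, 0.46 and 0.44, Psmb7 0.11, 0.53 and 0.45, and Psmd5 0.68, 0.52 and 1.11. In CSE with naringenin versus CSE 39 members were negative in all 3 sets and none passed that test, as for 0.0126% of all genes. In CSE with naringenin versus control 23 members were positive in all 3 sets and 4 negative, with a median of log2 -0.03, 0.22 and 0.17 for the constitutive core in sets 1, 2 and 3, and none passed that test, against 2.76% of all genes. Set 3 holds 1 library of each group, so its values have no replicate. Without it 28 of the 35 members were still called higher in CSE, and the 7 others were Psma2, Psma7, Psmb5, Psmc3, Psmd6, Psme4 and Psmg3.

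**Figure D5:**
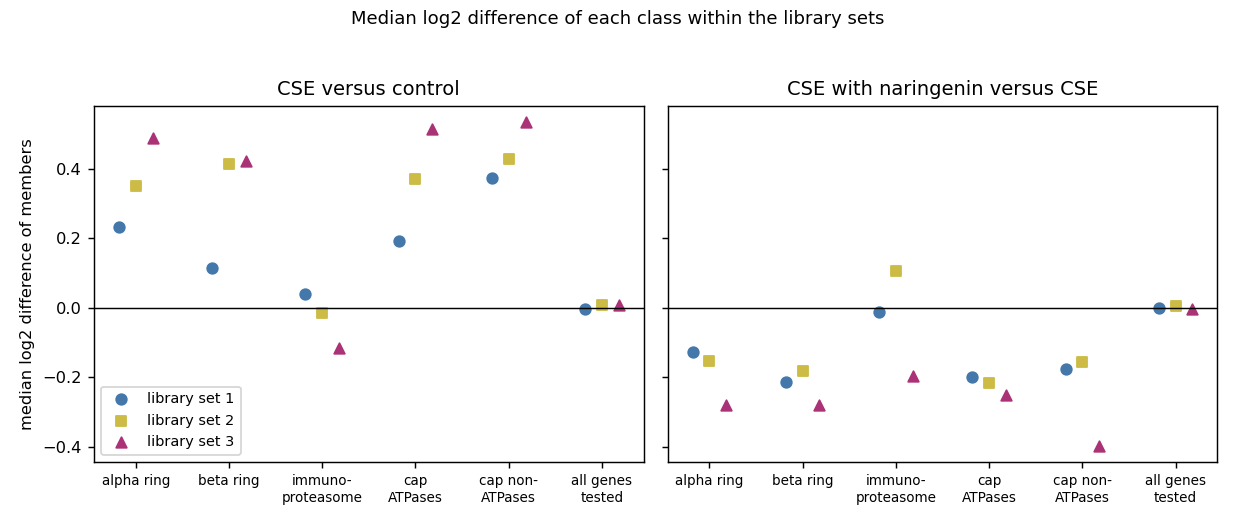
Median log2 difference of the members of each class within library sets 1, 2 and 3 (points), for CSE versus control on the left and CSE with naringenin versus CSE on the right, beside all genes tested. Rings and cap are above 0 on the left and below 0 on the right in every set, and the immunoproteasome lies on both sides of 0.

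Proteins that belong to the proteasome or work with it but lie outside the symbol rule were taken from a list of 19. Of these, 18 were in the table and tested. In CSE against control 13 of the 18 were higher and none lower (median log2 0.31), where 10.8% of all genes were called higher. Usp14, the deubiquitinase docked on Psmd2, averaged 114 ± 5.90 CPM in CSE and 73.8 ± 3.27 CPM in control libraries (log2 0.63, adjusted p = 5.27e-06). Adrm1, a ubiquitin receptor of the cap, averaged 108 ± 7.88 CPM in CSE and 80.1 ± 7.62 CPM in control libraries (log2 0.44, adjusted p = 0.00132; SD, n = 5). Zfand2a, a cap-binding protein induced by arsenite, had the largest difference and a wide spread in CSE (102 ± 53.8 CPM in CSE and 45.1 ± 9.73 CPM in control libraries, log2 1.17, adjusted p = 0.00558). Vcp, the ATPase that extracts tagged proteins from complexes and membranes, and its cofactors Ufd1 and Nploc4 were higher by log2 0.32, 0.50 and 0.49. Also higher were Uchl5, Ecpas, Txnl1, Ube3c, Rad23b, Ubqln4 and Zfand5 (log2 0.16 to 0.41), while Pomp (log2 0.13), Sem1 (-0.09), Ubqln1 (0.06) and Ubqln2 (0.09) were among those that did not pass.

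In CSE with naringenin, 2 of the 18 were lower than in CSE, where 0.574% of all genes were called lower. Usp14 averaged 94.4 ± 5.88 CPM in CSE with naringenin and 114 ± 5.90 CPM in CSE libraries (SD, n = 5; log2 -0.28, adjusted p = 0.0391). Zfand2a averaged 43.4 ± 6.37 CPM in CSE with naringenin and 102 ± 53.8 CPM in CSE libraries (log2 -1.22, adjusted p = 0.04). Against control 3 of the 18 were higher in CSE with naringenin (4.26% of all genes), Usp14 (log2 0.36), Rad23b (0.20) and Zfand5 (0.21).

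Of 6 regulators of proteasome genes or of their import, 2 were higher in CSE than in control (10.8% of all genes). Nfe2l2 averaged 249 ± 13.6 CPM in CSE and 189 ± 13.5 CPM in control libraries (SD, n = 5; log2 0.40, adjusted p = 6.54e-04), with all CSE libraries above all controls. Akirin2, which carries proteasomes into the nucleus, was higher by log2 0.22 (adjusted p = 0.0359). Nfe2l1 (log2 -0.07), its protease Ddi2 (-0.27), Ngly1 (-0.08), which removes its sugars, and Midn (-0.06) did not pass, and none of the 6 passed in either comparison of CSE with naringenin. These are transcript levels, and the activity of the factors was not measured. Of 6 ubiquitin genes 1 was higher in CSE (10.8% of all genes), the activating enzyme Uba6 (log2 0.30, adjusted p = 0.01).

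On the side of the immunoproteasome, 2 of 10 genes of MHC class I presentation were lower in CSE than in control and none higher, where 10.4% of all genes were called lower. They were the peptide-trimming Erap1 (log2 -0.19, adjusted p = 0.00897) and the chaperone Pdia3 (log2 -0.17, adjusted p = 0.0416). The transporter genes Tap1 and Tap2 (log2 -0.31 and 0.29) and B2m (log2 -0.27) did not pass. Of 9 tested regulators of interferon signalling 5 were lower in CSE, against the same 10.4% of all genes. Ifngr1 averaged 83.8 ± 9.51 CPM in CSE and 153 ± 46.9 CPM in control libraries (SD, n = 5; log2 -0.87, adjusted p = 0.0054). Irf8 (log2 -0.42), Irf2 (log2 -0.24) and Ifngr2 (log2 -0.26) were also lower, and in these 4 genes every CSE library lay below every control, as in 6.33% of all genes. Neither list had a gene past the threshold between CSE with naringenin and CSE. Against control, CSE with naringenin had Tap2 higher (log2 0.41, adjusted p = 0.0319) and Irf8 and Ifngr2 lower (log2 -0.48 and -0.28), where 4.26% of all genes were called higher and 3.9% lower. Mitochondrially encoded genes had 0 of 13 past the threshold in each comparison (edgeR), and none at an unadjusted p under 0.05.

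RefSeq lists numbered pseudogene or like copies for 19 of the 50 members, among them Psmb3, Psmb6, Psmb7, Psmc4, Psmd12, Psmd14, Psme1, Psme2 and Psme3. Their counts are uncertain where reads could be split between copies. For 9 members, Psmb5, Psmb7, Psmc1, Psmc5, Psmd1, Psme1, Psme3, Psmc3ip and Psme3ip1, another gene of the table overlaps, and no source used here says if reads were assigned by strand. For Psmb5, Psmc1, Psmc5, Psme3 and Psme3ip1 the other gene lies on the same strand, where assignment by strand would not separate the reads. In the deposited annotation, whose build those sources do not give, Psmd5 (ENSRNOG00000018809) spans chromosome 3 from 13916203 to 13933658, Psmd2 (ENSRNOG00000001719) chromosome 11 from 83934087 to 83944763 and Psmb3 (ENSRNOG00000052730) chromosome 10 from 85646633 to 85653729. Psmb8 (ENSRNOG00000000456) and Psmb9 (ENSRNOG00000000459) are both on chromosome 20, Psmb8 at 3990613 to 3993769 and Psmb9 at 3973420 to 3978845. Psme1 (ENSRNOG00000019041) and Psme2 (ENSRNOG00000019246) are both on chromosome 15, Psme1 at 34256071 to 34258947 and Psme2 at 34265557 to 34269851.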

How the data were processed

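Poly(A) RNA of rat tracheal epithelium was sequenced in 15 libraries as strand-specific pairs with molecular identifiers in the adapters, per the labels' protocols. Tools listed in the submitters' processing notes, without saying what each did, are HISAT2 2.0.4, StringTie 1.3.4d, cutadapt 1.9, UMI-tools, edgeR and DESeq2. The genome build, the merging of identifiers and the use of strand in counting are not given in the sources used here. The counts per gene were used as the authors deposited them, and the FPKM values beside them were computed by the authors.

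The quasi-likelihood F test of edgeR 4.0.16 (R 4.3.3) was run on the counts of all 15 libraries together, with filterByExpr, TMM scaling and group as the only term, and p-values were adjusted by Benjamini-Hochberg over all genes tested. Every adjusted p without another name is from this fit. The procedure was tested on simulated counts that held no library sets, so that test cannot show how the fit behaves with them. Fold changes are of the first group named over the second. Ratios of 2 genes (0.5 added to each count) were tested by exact permutation over libraries. Library sets came from clustering the residuals of log2 CPM from the group means, so they were found in these same counts. Members, classes, gene lists, library sets and tests were chosen with earlier results of these data known. Values in every library are given for the 6 catalytic subunits, Psme1, Psme2, up to 8 called members with the smallest adjusted p in each comparison and the member with the largest difference of each class. Replicates of a group were compared by chi-square per gene, where counting noise alone gives a median of 0.455. The median was 2.77 to 5.71 in the 6 pairs within a library set and 7.42 to 20.9 in the 24 other pairs. Libraries of the same set were thus more alike than those of different sets, and may not be independent replicates. Whether they are was not tested. All libraries were kept as separate, so the SDs, the edgeR fit and the permutation tests count each as independent. The numbers in the labels do not pair libraries: 7 of 15 same-numbered pairs had a residual correlation over 0.1. Alternatives were other scalings and filters, DESeq2 1.42.0, limma-voom (limma 3.58.1), limma on log2(FPKM + 1) and log2(FPKM + 0.1) of the deposited FPKM, blocks and left-out libraries. Leaving out set 3 was chosen after the data were seen. Single-gene results of some listed genes are not reported here.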

Additional observations from a re-analysis of the deposited data

Results flagged for a closer look

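In 8 of 78 groups of 5 values tested, 1 library stood apart from the other 4 by Dixon's criterion, which chance meets in about 1 group in 20. All 8 were library 5 of its group, which is library set 3. Psma1 stood at 185.7 CPM in CSE with naringenin library 5 (others 157 to 163) and at 233 CPM in CSE library 5 (others 178 to 185). Psmd2 stood at 520.4 CPM in CSE library 5 (others 432 to 455), and Psmd11 at 204 CPM there (others 164 to 175). Psmd9 stood at 43.8 CPM in CSE with naringenin library 5 (others 33.7 to 36.3), at 48.9 CPM in CSE library 5 (others 34.9 to 38.2) and at 34.4 CPM in control library 5 (others 26.6 to 28.1). The log2 ratio of Psmb8 to Psmb5 was -0.43 in control library 5 (others -1.39 to -1.26).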

How the results depend on the processing

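Members called higher in CSE than in control numbered 35, and 27 to 37 under every alternative run (27 to 34 with 1 library left out). Members lower in CSE with naringenin than in CSE numbered 3, but 5 scaled by library totals alone, 5 without set 3, 1 without the low-count filter, 1 with only the groups compared, 1 with counts summed per library set, 10 with DESeq2, 22 with the library set as a block, 7 on either FPKM scale and 1 to 8 with 1 library left out (8 without control library 5). Members higher in CSE with naringenin than in control numbered 6, but 17 by library totals, 3 without the filter, 18 with the set block, 4 with counts summed per set, 15 on either FPKM scale and 2 to 8 with 1 library left out. Calls over all genes changed with the setting too. Genes lower in CSE with naringenin than in CSE numbered 91 of 15860, but 324 with DESeq2 and 958 with the set block. Genes higher in CSE with naringenin than in control numbered 675 of 15860, but 1442 by library totals and 1995 with the set block. On log2(FPKM + 1) these were 103 and 1101 of 16618 genes. With the replicate number as a block, 35, 7 and 9 members were called in these comparisons, and 1764, 162 and 721 of all 15860 genes. The numbers are no design pairing, and 5 of 15 libraries correlated best with their own number.

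With 1 library left out, the log2 difference of Psmb10 to Psmb7 between CSE with naringenin and CSE ran from -0.026 to 0.21, and that of Psmb8 to Psmb5 between CSE with naringenin and control from -0.12 to 0.11 (0.066 without set 3). That of Psmb9 to Psmb6 between CSE with naringenin and control ran from -0.29 to -0.11, and passed without CSE with naringenin library 4 (-0.29, exact permutation adjusted p = 0.0357). This adjusted p also depends on the test of that ratio in CSE versus control. That test does not use the library left out and has the smallest possible p (exact permutation p = 0.00794). Ranges for the other ratios kept their sign.

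Some genes near 0 that were not called changed sign. In CSE versus control the log2 fold change ran, with 1 library left out, from -0.047 to 0.087 for Psmb10 (-0.0048 without set 3), from -0.057 to 0.27 for Psmb8 and from -0.021 to 0.029 for Psme1 (-0.014 with RLE scaling and with DESeq2, -0.0065 without set 3). In CSE with naringenin versus CSE it ran from -0.16 to 0.051 for Psmb8, from -0.024 to 0.045 for Psme2 (-0.0026 with summed counts) and from -0.019 to 0.090 for Psmg3. In CSE with naringenin versus control it ran from -0.090 to 0.19 for Psmb8 (0.075 by library totals, 0.0035 with only the groups compared, 0.029 with the replicate block and with the set block, 0.033 with limma-voom, 0.082 and 0.085 on the FPKM scales, 0.10 without set 3) and from -0.049 to 0.11 for Psmc3ip (-0.044 without set 3). The cause of each change was not tested. Counting limits Psma8 and Psmb11, which lie below 1 CPM.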
